A study of Homo sapiens with 18 samples.

Results

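The data describe how the response of NCI-H2347, an established human lung cancer cell line, to pioglitazone differed between 24 and 12 h of exposure. RNA was measured on 1-colour Illumina HumanHT-12 v4 BeadChips. Cultures were kept in RPMI with 5% fetal bovine serum and, 24 h after plating, were given 50 µM pioglitazone (Pio) or the solvent DMSO alone (vehicle, Veh). The comparison used 12 of the 18 arrays of the series: 3 with pioglitazone and 3 with vehicle at 24 h, and 3 with pioglitazone and 3 with vehicle at 12 h. The remaining 6 arrays, 3 with pioglitazone and 3 with vehicle at 48 h, served to follow the genes further. Every group is the same line on the same medium, and 1 dose of the drug was used. The labels do not say whether the arrays of a group stand for separate cultures. If they do not, the p-values rest on technical spread alone.

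For each gene, the effect of pioglitazone at a time is its mean log2 signal on the pioglitazone arrays minus that on the vehicle arrays. The change in response is the effect at 24 h minus the effect at 12 h, so a positive value means that the effect lay higher at 24 h. All 11680 genes with a detected probe were fitted, and a gene was called where limma's p-value, adjusted over all of them by the Benjamini-Hochberg method, was under 0.05. A called gene was sorted by its effects at both times. Its response appeared if only the effect at 24 h passed the threshold, faded if only the effect at 12 h did, grew or shrank if both did with the same sign, and reversed if both did with opposite signs.

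Pioglitazone is a thiazolidinedione that activates PPARγ, a nuclear receptor that pairs with the retinoid X receptor on DNA and switches on genes of lipid uptake, storage and oxidation. Cells that run short of amino acids, or whose endoplasmic reticulum fills with unfolded protein, turn on the integrated stress response, in which the transcription factor ATF4 raises genes of amino acid supply, and the unfolded protein response, which raises the chaperones of that compartment. Genes of DNA replication are driven by E2F transcription factors as cells pass from G1 into S phase, so their mRNA levels follow how many cells are cycling.

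The arrays detected 17040 to 18880 probes each. Pearson correlations across genes ran from 0.973 to 0.995 between arrays of 1 group and from 0.941 to 0.988 between arrays of different groups, and no 2 arrays were identical. All 6 arrays at 24 h had a higher background (median signal of undetected probes 138 to 145) than the 6 at 12 h (108 to 113), so this difference and the time cannot be told apart. The effects at 24 h and at 12 h were each measured within 1 level of background, but the change in response spans both levels. How much the difference in background bears on the change was not tested. The epithelial markers were present, all 11 of 11 on every pioglitazone array at both times and on every vehicle array at 12 h, and 10 of 11 on every vehicle array at 24 h. Of the lung lineage markers, NKX2-1, NAPSA, FOXA1 and FOXA2 were detected on all 12 arrays, the surfactant genes SFTPA1 on 11 and SFTPD on 7, and the surfactant genes SFTPB and SFTPC and the club cell genes SCGB1A1 and SCGB3A2 on none. Of 7 endothelial markers, ESAM was detected on all 12, VWF on 6 and the others, PECAM1, CDH5 and KDR among them, on none. Of 10 fibroblast markers, COL1A1, COL1A2 and ACTA2 were detected on all 12, DCN on 2 and the others on none. The pan-leukocyte gene PTPRC was detected on none, and the rest of its list is given with CSF1R.

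The response changed in 81 of the 11680 genes (0.693% called), with 41 higher at 24 h (0.351%) and 40 lower (0.342%). These shares are the background for each count of called genes in a gene list below. The response appeared in 50 genes, 24 upwards and 26 downwards, grew in 11, faded in 12, shrank in 1 and reversed in 7. Among the 81 were secreted factors, chaperones, DNA repair enzymes and glycolytic enzymes, and 39 changed by at least 2-fold. In the same fit 2725 genes (23.3%) had passed at 24 h, 10.5% of all genes upwards and 12.8% downwards, and 1028 (8.8%) at 12 h, 4.32% upwards and 4.48% downwards. The 3 pioglitazone arrays and the 3 vehicle arrays did not overlap in 45.2% of all genes at 24 h and in 33% at 12 h, the background for each statement below that groups stood apart. The 661 genes that passed at both times with the same sign far outnumbered the 7 with opposite signs, and across all genes the effects at both times correlated with r = 0.57, a description over genes that are not independent. Of the 2057 genes that passed at 24 h alone, only 50 were called for a change, and of the 360 that passed at 12 h alone, 12 were. A change in response had a median standard error of 0.21 on the log2 scale, against 0.15 for an effect at 1 time, and the smallest change called was 0.62. At an unadjusted p under 0.05, 1735 genes (14.9%) differed. The number of calls depended on single arrays: it was 199 without Pio_24 replicate 1 and lay between 30 and 64 without any other of the 12. All 81 kept their sign in each case, but they were called on these same arrays, so this is no separate support. Without each array in turn, 27 of the 81 stayed called. Those among them that are described here are IL1RL1, INHBE, CCN2, HSPA13, HEY2, FIGNL1, FEN1, PTGS2, ALDH1A3, SLC1A4, FABP3, CEACAM6, ERP27, SDCBP2, GBP2, BCL3, LOC154761, EPN3, TRIM6, IL17RE, LFNG, AKR1C3, PFKFB4, CSF1R and UAP1. Every other called gene lost its call without at least 1 array. Centring the arrays on the median of all probes moved the median change of all genes to −0.32, against −0.02 here, and left 0 genes called (717 at an unadjusted limma p under 0.05). This scaling shifts all values of an array alike, and each positive list median given below turns negative under it, except those of the histone and epithelial lists. Relative to the median of all genes, each of them stays positive under every alternative, while the negative medians of the stress, chaperone, replication, repair and mitosis lists stay negative under every alternative.

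**Figure D1:**
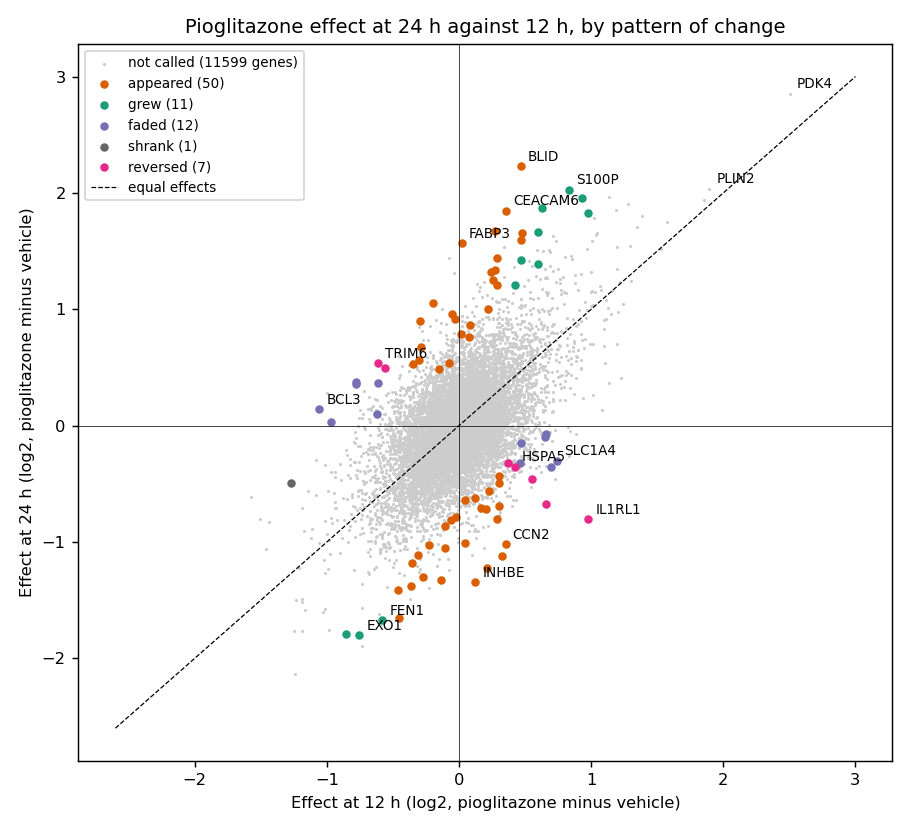
Effect of pioglitazone at 24 h (vertical axis, log2) against that at 12 h (horizontal axis, log2) for 11680 genes, with the 81 called genes coloured by pattern and the 11599 others in grey. The dashed line marks equal effects. The 50 genes whose response appeared did not pass at 12 h, though some lie off 0 there, such as LOC154761 at 0.48 and PSMC3IP at −0.45. PLIN2 and PDK4, with high effects at both times, lie close to the dashed line.

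The 7 reversed genes were IL1RL1, HEY2, CSGALNACT2, HSPA5 and BTG1, higher with the drug at 12 h and lower at 24 h, and TRIM6 and IL17RE, the other way round. IL1RL1 encodes ST2, the receptor of the alarmin interleukin 33, and had the most negative change of all genes tested. Its log2 signal was 8.18, 7.99 and 8.10 on the pioglitazone arrays at 24 h, against 8.76, 8.93 and 8.98 on the vehicle arrays, and 9.03, 9.26 and 9.01 on the pioglitazone arrays at 12 h, against 8.19, 7.96 and 8.22 on the vehicle arrays. The groups stood apart at each time, in opposite orders. Its effect was −0.80 at 24 h, against 0.98 at 12 h, a change of −1.78 (SE 0.20, n = 3 arrays per group, limma adjusted p = 5.47e-04), and a second probe of the gene gave −1.80. At 48 h the effect of IL1RL1 was −1.33. HEY2, a transcriptional repressor downstream of Notch receptors, had a log2 signal of 4.73, 4.60 and 4.46 on the pioglitazone arrays at 24 h, against 5.11, 5.35 and 5.36 on the vehicle arrays, and 6.14, 5.83 and 5.93 on the pioglitazone arrays at 12 h, against 5.12, 5.41 and 5.40 on the vehicle arrays. It was detected on no pioglitazone array at 24 h, so the fall there is bounded as at least 1.03-fold. Its fitted change was −1.33 (SE 0.18, n = 3 arrays per group, limma adjusted p = 0.00206). TRIM6, an E3 ubiquitin ligase of the tripartite motif family, changed upwards by 1.15 (SE 0.14, n = 3 arrays per group, limma adjusted p = 5.82e-04). TRIM6 signals were 9.07, 9.02 and 9.05 on the pioglitazone arrays at 24 h, against 8.67, 8.38 and 8.48 on the vehicle arrays, and 7.69, 7.70 and 7.65 on the pioglitazone arrays at 12 h, against 8.18, 8.37 and 8.34 on the vehicle arrays, so that the drug lowered it at 12 h and raised it at 24 h, while its effect at 48 h (−0.23) did not pass. IL17RE, the receptor subunit that binds interleukin 17C, gave effects of 0.50 at 24 h, against −0.56 at 12 h, but was detected on no pioglitazone array and on 2 of the 3 vehicle arrays at 12 h. CSGALNACT2, an enzyme that starts chondroitin sulfate chains, gave −0.46 at 24 h, against 0.55 at 12 h. BTG1, an antiproliferative gene that falls outside the rule for named genes and is given to complete this count, gave −0.32 at 24 h, against 0.37 at 12 h. Effects of opposite sign, whatever their p, occurred in 42 of the 81 genes and in 32.8% of all genes tested.

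HSPA5 encodes BiP, the main chaperone of the endoplasmic reticulum lumen and the sensor that holds the unfolded protein response in check. Its promoter is shown because the stress genes are a group whose median effect had opposite signs at the 2 times. Some other lists, such as the heat shock proteins, also changed sign. In RefSeq's GRCh38.p14, the window from 250 bases before to 50 bases after its start (chr9:125241294-125241593, minus strand) reads as follows, with the capitals marking the parts of its ER stress response element (ERSE), a CCAAT followed after 9 bases by CCACG, which begins 66 bases upstream of the first base of the gene.
HSPA5 promoter: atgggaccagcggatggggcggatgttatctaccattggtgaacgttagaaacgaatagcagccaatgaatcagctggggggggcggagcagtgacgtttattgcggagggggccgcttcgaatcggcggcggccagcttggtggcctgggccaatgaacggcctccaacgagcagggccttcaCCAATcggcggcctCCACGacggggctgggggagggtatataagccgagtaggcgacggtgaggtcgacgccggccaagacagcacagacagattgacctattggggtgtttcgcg
The log2 signal of HSPA5 was 8.45, 8.27 and 8.28 on the pioglitazone arrays at 24 h, against 8.50, 8.90 and 8.67 on the vehicle arrays, and 8.53, 8.40 and 8.32 on the pioglitazone arrays at 12 h, against 8.06, 7.99 and 7.93 on the vehicle arrays. The 3 pioglitazone arrays lay below the 3 vehicle arrays at 24 h and above them at 12 h. Its change in response was −0.78 (SE 0.16, n = 3 arrays per group, limma adjusted p = 0.0295). Over time HSPA5 moved by −0.08 on the pioglitazone arrays and 0.70 on the vehicle arrays, so the pioglitazone level was nearly the same at both times while the vehicle level was higher at 24 h. Of the 21 measured genes on the list of endoplasmic reticulum chaperones, HSPA5 was the 1 called lower and 0 were called higher. Not all of the 21 are chaperones or folding enzymes, since XBP1, a transcription factor, is on the list. Their median change was −0.34, against −0.02 over all genes, and 4 of 21 values were positive (47.6% of all genes). The list's median effect was −0.17 at 24 h, with 5 genes past downwards and 0 upwards, against 12.8% and 10.5% of all genes. It was 0.12 at 12 h, with 2 upwards and 0 downwards, against 4.32% and 4.48% of all genes.

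With HSPA5, the ERSE was present in the windows of 7 of the 21 genes of this list, against 14 of the 9405 tested genes with a window (0.149%). It was searched on both strands, it contains the letters of a CCAAT box, and it was added to the searched motifs after the values had been seen. The sites are set side by side here to show the shared CCAAT and CCACG in capitals and the 9 bases between, each on the strand on which it reads.
CALR, chr19:12938384-12938402, minus strand: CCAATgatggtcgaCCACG
CANX, chr5:179698778-179698796, plus strand: CCAATcttcacactCCACG
CRELD2, chr22:49918554-49918572, minus strand: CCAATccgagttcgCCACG
HSP90B1, chr12:103930216-103930234, plus strand: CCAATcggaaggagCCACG
HSP90B1, chr12:103930321-103930339, minus strand: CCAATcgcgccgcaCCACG
HSPA5, chr9:125241391-125241409, minus strand: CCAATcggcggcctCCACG
PDIA6, chr2:10812853-10812871, minus strand: CCAATgagccgcagCCACG
XBP1, chr22:28800603-28800621, minus strand: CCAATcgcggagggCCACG
Beside HSPA5, the changes of these genes were −0.46 for CRELD2, −0.43 for HSP90B1, which has 2 sites, −0.34 for XBP1, −0.24 for CALR, −0.17 for CANX and −0.06 for PDIA6, all negative and none called. They were picked by sequence after their values were known, and the match is a description of the letters. HSPA13, a microsomal relative of the same chaperone family that was not on the list, changed by −1.43 (SE 0.21, n = 3 arrays per group, limma adjusted p = 0.0036). Its log2 signal was 6.22, 5.57 and 5.85 on the pioglitazone arrays at 24 h, against 7.23, 6.95 and 7.11 on the vehicle arrays, and 7.29, 7.46 and 7.54 on the pioglitazone arrays at 12 h, against 7.25, 7.03 and 7.39 on the vehicle arrays. The low values are those of the pioglitazone arrays at 24 h. ERP27, a protein of the endoplasmic reticulum that binds the disulfide isomerase ERp57, went the opposite way: its effect was 1.05 at 24 h, against −0.20 at 12 h, a change of 1.25 (SE 0.20, n = 3 arrays per group, limma adjusted p = 0.00477).

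As processed here, the genes of the integrated stress response had the lowest median change of all lists. With arrays centred on the median of all probes, DNA replication lay lower (−0.72, against −0.67). Relative to the median of all genes, DNA replication reached −0.44 among the alternatives, below the lowest stress response value there (−0.41). The order of these lists therefore depends on the processing. Over the 36 stress response genes measured, the median was −0.42 and 2 of 36 values were positive. Of these genes 2, GDF15 and MTHFD2, were called lower (0.342% over all genes). The median effect was −0.10 at 24 h, with 2 genes past upwards and 4 downwards, against 10.5% and 12.8% of all genes. It was 0.29 at 12 h, with 10 upwards and 0 downwards, against 4.32% and 4.48% of all genes. The difference lay in both treatments: the list's median moved by −0.14 between 12 and 24 h on the pioglitazone arrays and by 0.20 on the vehicle arrays, against 0.03 and 0.06 over all genes. GDF15, a secreted stress cytokine of the TGF-β family that is also a p53 target, had log2 signals of 8.10, 8.01 and 8.17 on the pioglitazone arrays at 24 h, against 8.81, 9.64 and 9.19 on the vehicle arrays, and 8.48, 8.61 and 8.83 on the pioglitazone arrays at 12 h, against 8.16, 8.38 and 8.38 on the vehicle arrays. The 3 pioglitazone arrays lay below the vehicle arrays at 24 h and above them at 12 h, and the change was −1.45 (SE 0.27, n = 3 arrays per group, limma adjusted p = 0.0193). MTHFD2, the mitochondrial folate enzyme, changed by −0.62 (SE 0.13, n = 3 arrays per group, limma adjusted p = 0.0385), with an effect of −0.15 at 24 h, against 0.47 at 12 h. Its response faded. INHBE, which encodes a secreted activin subunit and was not on the list, had log2 signals of 6.81, 6.51 and 6.84 on the pioglitazone arrays at 24 h, against 8.16, 8.10 and 7.93 on the vehicle arrays, and 7.01, 7.12 and 6.92 on the pioglitazone arrays at 12 h, against 7.08, 6.75 and 6.86 on the vehicle arrays. The vehicle arrays at 24 h stood apart from the other 9 arrays. The change of INHBE was −1.47 (SE 0.17, n = 3 arrays per group, limma adjusted p = 5.47e-04), with −0.30 on the pioglitazone arrays and 1.17 on the vehicle arrays between the times, and its effect at 48 h was −2.02. SLC1A4, a transporter of alanine, serine and cysteine, was not on the list either. It gave effects of −0.30 at 24 h, against 0.74 at 12 h, a change of −1.04 (SE 0.18, n = 3 arrays per group, limma adjusted p = 0.011). Its signals were 6.93, 6.99 and 6.76 on the pioglitazone arrays at 24 h, against 7.20, 7.17 and 7.20 on the vehicle arrays, and 7.10, 7.10 and 7.10 on the pioglitazone arrays at 12 h, against 6.35, 6.32 and 6.41 on the vehicle arrays. The vehicle arrays at 12 h lay below the other 9. MAP1LC3B, the LC3B protein of autophagosome membranes, faded likewise (−0.36 at 24 h, against 0.70 at 12 h, change −1.06 (SE 0.20, n = 3 arrays per group, limma adjusted p = 0.0193)), while its list of 31 autophagy and lysosome genes had a median change of −0.02. UAP1 and GFPT1, enzymes of hexosamine synthesis singled out after their values were seen, changed by −0.99 and −0.75.

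**Figure D2:**
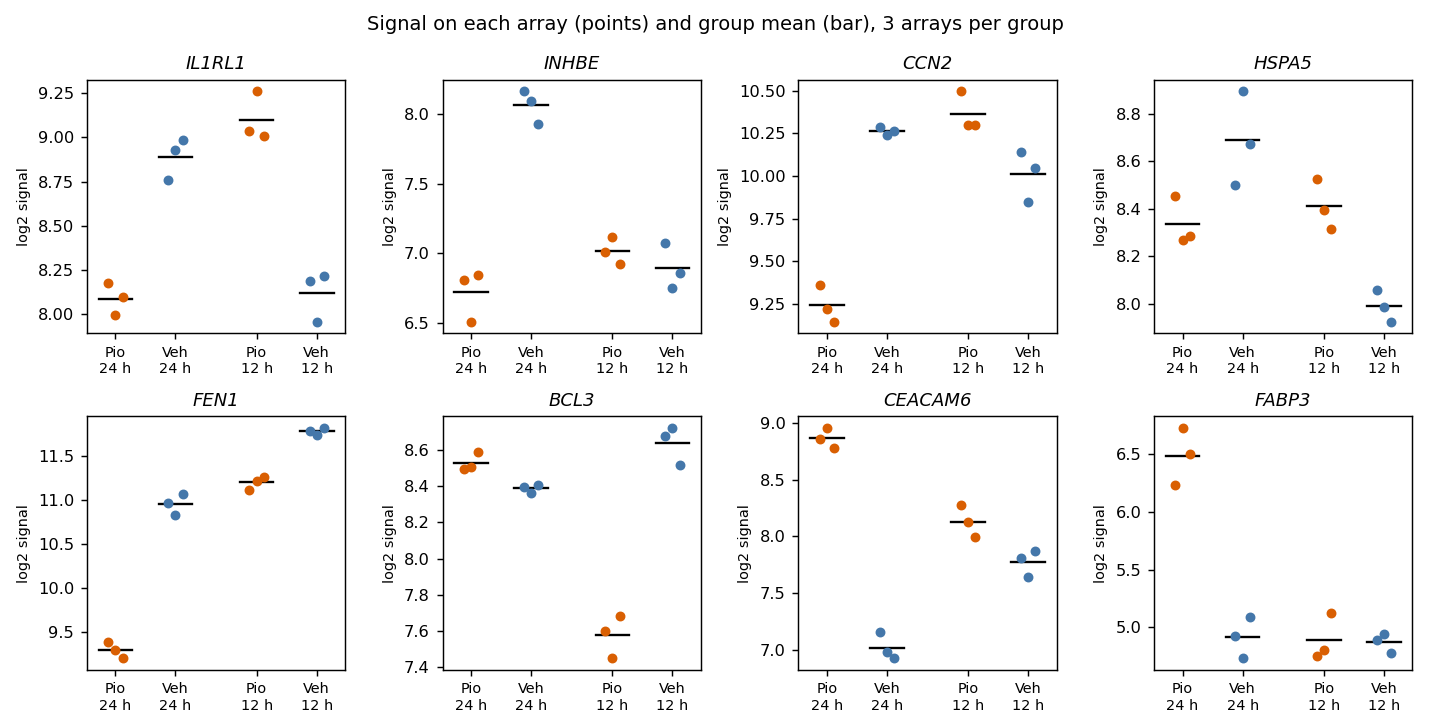
Log2 signal (vertical axis) of 8 genes on each of the 12 arrays: points are arrays, bars the mean of the 3 arrays of a group, orange with pioglitazone and blue with vehicle, at 24 h on the left and 12 h on the right of each panel. IL1RL1 and HSPA5 change their order between the times, INHBE is high on the vehicle arrays at 24 h alone, and FABP3 is high on the pioglitazone arrays at 24 h alone.

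Most called genes moved more over time on the pioglitazone arrays than on the vehicle arrays, 32 of the 41 higher and 32 of the 40 lower. In 24 of the 41 and 19 of the 40 only the pioglitazone arrays passed for a difference between 24 and 12 h, and in 14 and 16 both treatments did. Over all genes 42.6% passed on the pioglitazone arrays and 36.6% on the vehicle arrays, whether or not the other treatment passed. The shares of all genes that moved more, or passed alone, on the pioglitazone arrays were not counted. The called genes were also chosen on a contrast that holds these arrays, so whether the lean is particular to them was not tested. In the other 8 called genes only the vehicle arrays passed. The 3 higher ones were EPN3, CSF1R and SLC2A1, whose vehicle levels were lower at 24 h, and the 5 lower ones were HSPA5, SLC1A4, MAP1LC3B, INHBE and the small nucleolar RNA host gene SNHG8, whose vehicle levels were higher at 24 h. SNHG8 was singled out after its values were seen.

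**Figure D3:**
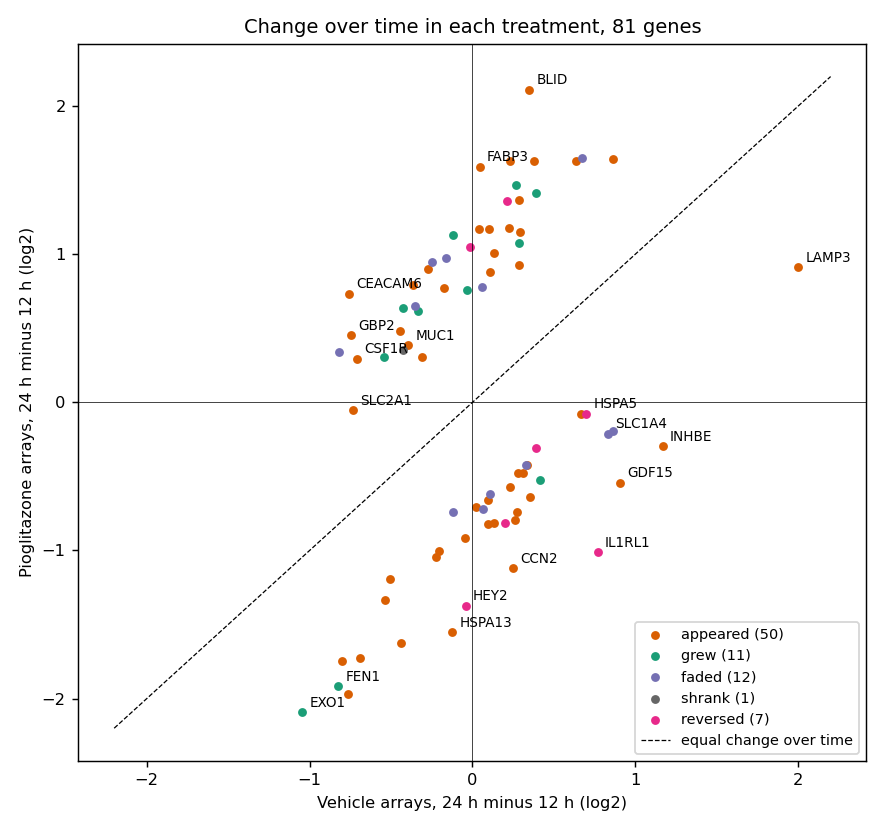
Change between 12 and 24 h on the pioglitazone arrays (vertical axis, log2) against that on the vehicle arrays (horizontal axis, log2) for the 81 called genes, coloured by pattern, with equal change on the dashed line. INHBE and SLC1A4 lie far right near the horizontal axis, where vehicle alone moved, and FABP3 and HSPA13 lie near the vertical axis, where the pioglitazone arrays alone moved.

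Genes of DNA replication and repair were among those lower at 24 h, with FEN1 and EXO1 past the threshold at both times. FEN1, the flap endonuclease that trims Okazaki fragments, had log2 signals of 9.38, 9.28 and 9.20 on the pioglitazone arrays at 24 h, against 10.97, 10.83 and 11.08 on the vehicle arrays, and 11.12, 11.22 and 11.27 on the pioglitazone arrays at 12 h, against 11.79, 11.74 and 11.82 on the vehicle arrays. Both pairs of groups stood apart, with the wider gap at 24 h. Its effect was −1.67 at 24 h, against −0.58 at 12 h, a change of −1.09 (SE 0.19, n = 3 arrays per group, limma adjusted p = 0.00922), and a second probe changed by −0.71. EXO1, the exonuclease of mismatch repair and DNA end resection, had signals of 5.89, 5.95 and 5.89 on the pioglitazone arrays at 24 h, against 8.0, 7.53 and 7.60 on the vehicle arrays, and 7.91, 8.08 and 8.02 on the pioglitazone arrays at 12 h, against 8.86, 8.75 and 8.66 on the vehicle arrays. It was low with the drug at both times and lowest at 24 h, with a change of −1.05 (SE 0.21, n = 3 arrays per group, limma adjusted p = 0.0261), although another probe changed by −0.42. RAD54L, a motor protein of homologous recombination, changed by −1.04 (SE 0.21, n = 3 arrays per group, limma adjusted p = 0.0295), with an effect of −1.30 at 24 h, against −0.27 at 12 h. CHEK1, the checkpoint kinase that halts cells with stalled forks, changed by −0.79 (SE 0.18, n = 3 arrays per group, limma adjusted p = 0.0499), at the edge of the threshold, with −1.11 at 24 h, against −0.31 at 12 h. FIGNL1, an ATPase of the AAA family that acts in DNA repair, changed by −1.19 (SE 0.20, n = 3 arrays per group, limma adjusted p = 0.00822), with −1.32 at 24 h, against −0.14 at 12 h. The effects of RAD54L, CHEK1 and FIGNL1 at 12 h did not pass. Of the 51 DNA replication genes measured, FEN1 was the 1 called lower and 0 were called higher, with a median change of −0.37 and 7 of 51 values positive. Their effect had a median of −0.77 at 24 h, with 37 past downwards, against 12.8% of all genes, and −0.36 at 12 h, with 18 past downwards, against 4.48% of all genes. Of the 31 DNA repair and checkpoint genes, 3 were called lower (EXO1, RAD54L, CHEK1), against 0.342% of all genes, and 0 higher, with a median of −0.33. Among 65 mitosis genes 0 were called in either direction, with a median of −0.23, and the spindle motor KIF15 (−0.86) and the kinase MELK (−0.71) had the largest values without passing (limma adjusted p = 0.143 and 0.0777). In a bulk culture fewer cycling cells and less of these mRNAs per cell cannot be told apart.

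PSMC3IP, also called HOP2, acts in homologous recombination, and its window is shown because it was 1 of the 2 genes called lower that held an E2F word (TTTCCCGC or TTTGGCGC, both strands). The window lies at chr17:42577680-42577979 on the minus strand of GRCh38.p14 (RefSeq), and the capitals mark the E2F word, read on the other strand, which begins 31 bases downstream of the first base of the gene. RefSeq lists a second start for this gene, whose window holds none.
PSMC3IP promoter: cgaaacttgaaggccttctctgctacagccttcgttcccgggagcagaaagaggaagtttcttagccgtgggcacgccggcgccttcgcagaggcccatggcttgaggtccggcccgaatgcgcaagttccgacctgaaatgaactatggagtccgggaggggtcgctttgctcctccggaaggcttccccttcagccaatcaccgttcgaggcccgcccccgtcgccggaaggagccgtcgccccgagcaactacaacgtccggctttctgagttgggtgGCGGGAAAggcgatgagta
The log2 signal of PSMC3IP was 4.90, 4.91 and 5.18 on the pioglitazone arrays at 24 h, against 7.03, 6.25 and 6.66 on the vehicle arrays, and 6.77, 7.08 and 7.04 on the pioglitazone arrays at 12 h, against 7.66, 7.17 and 7.41 on the vehicle arrays. It was detected on no pioglitazone array at 24 h, where it was at least 2.67-fold lower than with vehicle. Its change was −1.20 (SE 0.25, n = 3 arrays per group, limma adjusted p = 0.0333), and its other kept probes changed by −0.71 and −0.43. The call of PSMC3IP held under 6 of 14 other settings and in 4 of 12 fits that left out 1 array. An E2F word was present in 19 of the 44 DNA replication genes with a window (43.2%) and in 430 of 9405 genes tested (4.57%), but in 2 of the 34 genes called lower with a window. The CHR word TTTGAA was present in 42 of 56 mitosis genes (75.0%) and 13.9% of all. The windows of FEN1, EXO1, RAD54L and CHEK1 held no E2F word.

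Histone genes, which are transcribed in S phase, had mostly positive values. Over 17 canonical histone genes the median change was 0.38 with 15 of 17 positive, and the median effect was 1.00 at 24 h and 0.65 at 12 h, although 0 passed for a change in either direction. H2AC19 (0.86) and H2AC20 (0.83) had the largest values (limma adjusted p = 0.174 and 0.233). Copies of these genes are nearly identical, and their probes may share signal. RRM2, the ribonucleotide reductase subunit that limits DNA precursor supply, gave an effect of −1.89 at 24 h, against −0.73 at 12 h, and its change of −1.16 did not pass (limma adjusted p = 0.0801). In its list of 26 deoxynucleotide synthesis genes 0 were called, with a median change of −0.16 and 9 of 26 values positive. DUT of that list went the other way (0.73, not called), but its other probes changed by −0.25 and −0.32. LYAR, a nucleolar protein and the 1 called gene of 35 in ribosome biogenesis, changed by −0.82 (SE 0.18, n = 3 arrays per group, limma adjusted p = 0.0435). The 50 cytosolic ribosomal protein genes had a median change of 0.01 and 0 called.

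**Figure D4:**
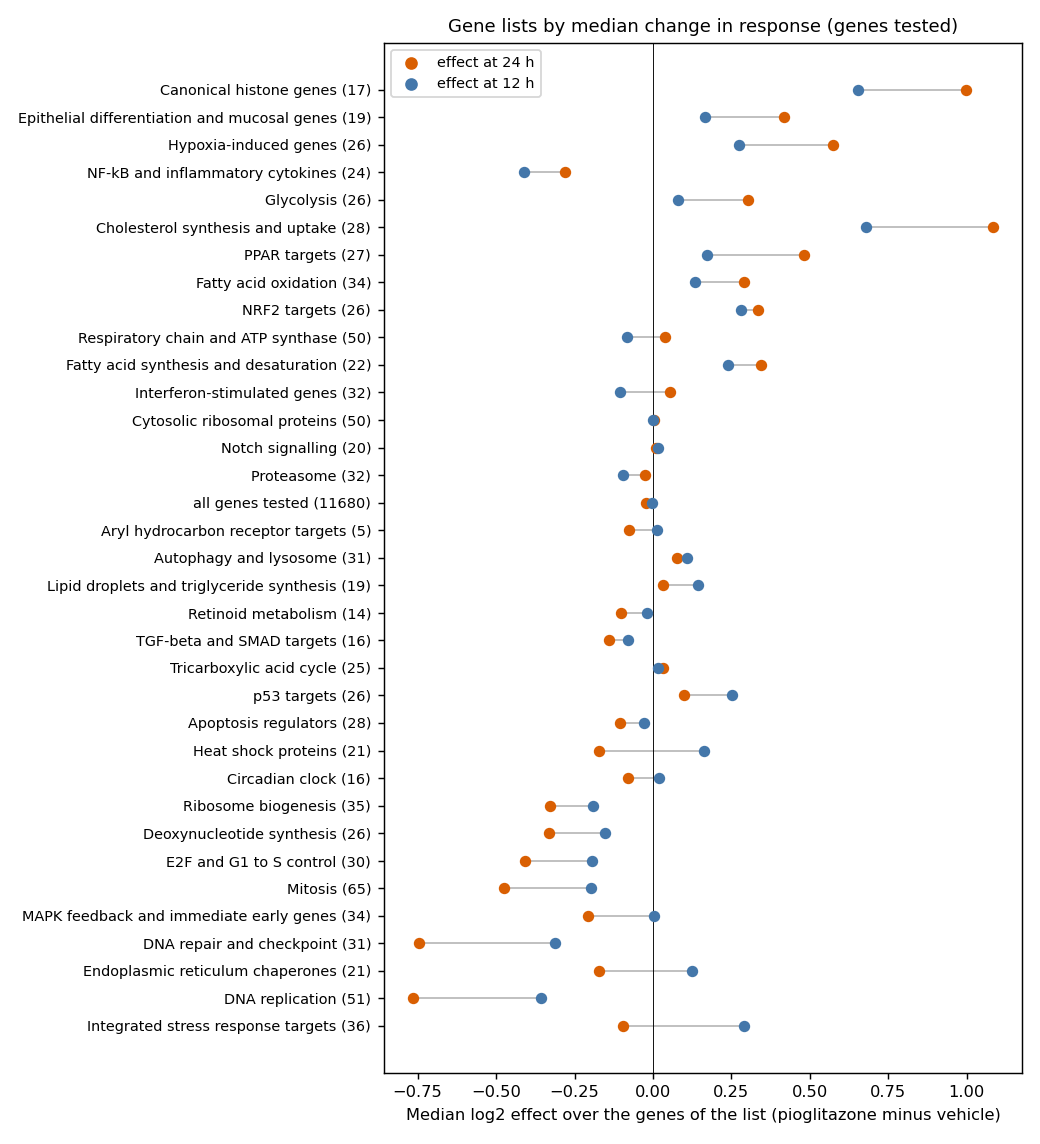
Median effect of pioglitazone (horizontal axis, log2) at 24 h (orange) and at 12 h (blue) over the tested genes of each list, with the number of genes in brackets, ordered by the median change in response. Stress response and endoplasmic reticulum chaperone lists cross 0 (below it at 24 h, above it at 12 h). So do some others, among them the heat shock proteins (−0.17 at 24 h, against 0.16 at 12 h) and, the other way, the respiratory chain. DNA replication lies at −0.77 at 24 h, against −0.36 at 12 h, on the same side.

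The 41 genes whose response turned higher at 24 h included mucosal and epithelial surface proteins. CEACAM6, an adhesion molecule anchored on the surface of lung and gut epithelium, had log2 signals of 8.86, 8.96 and 8.78 on the pioglitazone arrays at 24 h, against 7.15, 6.97 and 6.92 on the vehicle arrays, and 8.27, 8.13 and 7.99 on the pioglitazone arrays at 12 h, against 7.81, 7.64 and 7.87 on the vehicle arrays. The groups at 24 h stood far apart, and both treatments contributed, with 0.73 on the pioglitazone arrays and −0.75 on the vehicle arrays between the times. Its change was 1.49 (SE 0.22, n = 3 arrays per group, limma adjusted p = 0.0036), and its effect at 48 h was 2.34. SDCBP2, or syntenin-2, a PDZ protein at the plasma membrane, gave 10.21, 10.31 and 10.28 on the pioglitazone arrays at 24 h, against 8.26, 8.51 and 8.41 on the vehicle arrays, and 9.01, 9.12 and 9.28 on the pioglitazone arrays at 12 h, against 8.38, 8.51 and 8.65 on the vehicle arrays. Its response grew, with an effect of 1.87 at 24 h, against 0.63 at 12 h and a change of 1.25 (SE 0.18, n = 3 arrays per group, limma adjusted p = 0.0036), and its 2 other probes changed by 1.40 and 1.24. S100P, a calcium-binding protein raised in many carcinomas, was detected on every pioglitazone array and on no vehicle array at either time. It was at least 3.08-fold higher with the drug at 24 h, and its fitted change was 1.20 (SE 0.22, n = 3 arrays per group, limma adjusted p = 0.0193). Among these arrays its probe passed as detected through those with the drug alone, so this detection is no separate support. MUC1, the transmembrane mucin of airway epithelium, gave 11.35, 11.21 and 11.29 on the pioglitazone arrays at 24 h, against 10.31, 10.56 and 10.38 on the vehicle arrays, and 10.96, 10.76 and 10.98 on the pioglitazone arrays at 12 h, against 10.92, 10.76 and 10.76 on the vehicle arrays. MUC1 stood apart at 24 h and overlapped at 12 h, with a change of 0.78 (SE 0.14, n = 3 arrays per group, limma adjusted p = 0.0124). These 4 were the members called among 19 epithelial differentiation and mucosal genes, 0 being called lower, against 0.351% over all genes. The median change of the list was 0.36, yet 12 of 19 values were positive and its lowest was −0.85. ELF3, an epithelial transcription factor on the list of epithelial markers, changed by 0.93 (SE 0.18, n = 3 arrays per group, limma adjusted p = 0.0266), while the mean log2 signal of those 11 markers lay between 10.5 and 10.6 on the pioglitazone arrays at 24 h, against 10.4 on the vehicle arrays there, and between 10.3 and 10.4 on the arrays at 12 h. The effect of ELF3 at 48 h was 0.25 and did not pass.

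BLID, a BH3-like inducer of cell death and the most positive change among all genes tested, had signals of 8.70, 8.09 and 7.95 on the pioglitazone arrays at 24 h, against 5.70, 6.55 and 5.81 on the vehicle arrays, and 6.30, 5.74 and 6.37 on the pioglitazone arrays at 12 h, against 5.80, 5.77 and 5.45 on the vehicle arrays. It stood out with the drug at 24 h, with a change of 1.76 (SE 0.37, n = 3 arrays per group, limma adjusted p = 0.0341), and at 48 h its effect was 0.17. The 28 apoptosis regulators, of which it was the 1 called, had a median change of −0.10. DEFB103A, a β-defensin, was detected on the pioglitazone arrays at 24 h and on none of the other 9, and was at least 2.46-fold higher with the drug there. Among these arrays its probe passed as detected through those with the drug alone, so this detection is no separate support. The gene's copy DEFB103B is nearly identical and cannot be told apart from it, and a second probe changed by 0.73 where the main one changed by 1.40 (SE 0.25, n = 3 arrays per group, limma adjusted p = 0.0152). GBP2, an interferon-inducible GTPase, had an effect of 0.90 at 24 h, against −0.30 at 12 h and a change of 1.20 (SE 0.17, n = 3 arrays per group, limma adjusted p = 0.00214). It stands outside the list of 32 interferon-stimulated genes, which had a median change of 0.06 and 0 called, with HERC6 (0.84) and IFIT1 (0.75) the largest values. NKX2-1, the transcription factor that marks the lung lineage, had signals of 9.85, 9.80 and 9.77 on the pioglitazone arrays at 24 h, against 9.71, 9.61 and 9.80 on the vehicle arrays, and 8.98, 8.92 and 9.19 on the pioglitazone arrays at 12 h, against 9.61, 9.72 and 9.62 on the vehicle arrays. It was lower with the drug at 12 h and overlapped vehicle at 24 h, so its response faded, with a change of 0.72 (SE 0.14, n = 3 arrays per group, limma adjusted p = 0.024). A second probe gave 0.39 at 24 h, against −0.48 at 12 h, a change of 0.87. At 48 h the effect of NKX2-1 was 0.36 (limma adjusted p = 0.0102). The 6 lung lineage markers tested had a median change of −0.01, with 3 positive and a lowest value of −1.07, and NKX2-1 was the 1 called. LOC154761, a locus with no coding product known, changed by 1.18 (SE 0.21, n = 3 arrays per group, limma adjusted p = 0.0119) and was at least 1.89-fold higher with the drug at 24 h. It too passed as detected, among these arrays, through those with the drug alone. The spliceosomal RNA RNU4-2, which has near-identical copies, changed by 1.16 (SE 0.23, n = 3 arrays per group, limma adjusted p = 0.0266).

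CSF1R, the receptor of macrophage colony-stimulating factor, had signals of 9.30, 9.28 and 9.21 on the pioglitazone arrays at 24 h, against 8.40, 8.31 and 8.21 on the vehicle arrays, and 8.97, 8.90 and 9.03 on the pioglitazone arrays at 12 h, against 9.09, 8.93 and 9.03 on the vehicle arrays. At 24 h the pioglitazone arrays stood above the vehicle arrays, at 12 h the groups overlapped, and the change was 1.01 (SE 0.17, n = 3 arrays per group, limma adjusted p = 0.00732). Between the times CSF1R moved by 0.30 on the pioglitazone arrays and −0.71 on the vehicle arrays. It is also on the list of leukocyte markers, of which PTPRC, CD3E, MS4A1 and LYZ were detected on none of the 12 arrays, ITGAM on 2, CD3D on 11, and CD14, CD68 and CSF1R on all 12. The mean log2 signal of the 9 leukocyte markers on the array lay between 6.02 and 6.14 on the pioglitazone arrays and between 5.88 and 5.97 on the vehicle arrays at 24 h. At 12 h it lay between 5.89 and 6.08 on the pioglitazone arrays and between 6.04 and 6.13 on the vehicle arrays. At 48 h the effect of CSF1R was 0.08.

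Among the lipid genes, the response that changed was that of FABP3, the heart-type fatty acid binding protein and a PPAR target. Its log2 signal was 6.23, 6.73 and 6.50 on the pioglitazone arrays at 24 h, against 4.93, 4.73 and 5.09 on the vehicle arrays, and 4.75, 4.81 and 5.13 on the pioglitazone arrays at 12 h, against 4.89, 4.94 and 4.78 on the vehicle arrays. It was detected on the 3 pioglitazone arrays at 24 h and on none of the other 9, and was at least 2.44-fold higher with the drug at 24 h. Among these arrays its probe passed as detected through those 3 alone, so this detection lends the change no separate support. The fitted change was 1.55 (SE 0.21, n = 3 arrays per group, limma adjusted p = 0.00206). FABP3 was the 1 gene called among 27 PPAR targets, whose median change was 0.14. The median effect of these targets was 0.48 at 24 h, with 14 past upwards and 4 downwards, against 10.5% and 12.8% of all genes. It was 0.17 at 12 h, with 10 upwards and 3 downwards, against 4.32% and 4.48% of all genes. Some strong responses of lipid genes were not called as changed. PLIN2, which coats lipid droplets, had signals of 12.57, 12.40 and 12.55 on the pioglitazone arrays at 24 h, against 10.57, 10.33 and 10.52 on the vehicle arrays, and 12.33, 12.27 and 12.31 on the pioglitazone arrays at 12 h, against 10.41, 10.31 and 10.51 on the vehicle arrays. Its effect was 2.04 at 24 h, against 1.89 at 12 h, a change of 0.14 (SE 0.14, n = 3 arrays per group, limma adjusted p = 0.694). PDK4, a kinase that inhibits the pyruvate dehydrogenase complex, gave effects of 2.85 at 24 h, against 2.50 at 12 h, a change of 0.35 (SE 0.30, n = 3 arrays per group, limma adjusted p = 0.626). PPARG itself changed by −0.08 (SE 0.13, n = 3 arrays per group, limma adjusted p = 0.833). Of the 34 fatty acid oxidation genes 0 were called, with a median of 0.13 and ACAA1 (0.71) highest. The 19 genes of lipid droplets and triglyceride synthesis had a median of −0.05 and 0 called.

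A held response was counted in 370 genes that passed at both times with a change smaller than its standard error. The highest of these, by mean effect, were PLIN2, INSIG1, IDI1, H2BC5, MSMO1 and TM7SF2. INSIG1, the sterol sensor that restrains cholesterol synthesis, gave 1.94 at 24 h, against 1.85 at 12 h, and IDI1 of the same pathway gave 1.75 at 24 h, against 1.57 at 12 h. The lowest were TRAF1, BATF3, SLC43A3, SLC7A2, TGIF2 and FAM184A. Other probes of these high genes differed: one of PLIN2 changed by 0.60, one of INSIG1 changed by −0.14, one of H2BC5 by 0.25 and one of MSMO1, with effects of 0.17 at 24 h and 0.05 at 12 h, by 0.12. TRAF1, an adaptor of TNF receptors, gave −1.22 at 24 h, against −1.21 at 12 h. Over 28 genes of cholesterol synthesis and uptake the median effect was 1.09 at 24 h and 0.68 at 12 h, with 0 called for a change and a median change of 0.21. LSS, the enzyme that closes the sterol rings, had the largest change there (0.74), but its other probes gave −0.04 and 0.14. Among 22 genes of fatty acid synthesis and desaturation 0 were called and the median change was 0.10.

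A few genes of glucose use and hypoxia turned higher at 24 h. ENO2, the neuronal form of the glycolytic enzyme enolase, carried an HRE word (ACGTG, both strands, contained in the E-box CACGTG) in its window, which is shown as the called glycolysis gene that holds the word. The word was present in 32.5% of all tested genes with a window, in 8 of the 31 called higher (25.8%) and in 16 of the 34 called lower (47.1%). Of the 21 hypoxia-induced genes with a window, a list that does not hold ENO2, 15 had it (71.4%), but not PFKFB4, ADM or SLC2A1, the 3 called there. The window lies at chr12:6914330-6914629 on the plus strand of GRCh38.p14 (RefSeq), and the word, in capitals, begins 118 bases upstream of the first base of the gene.
ENO2 promoter: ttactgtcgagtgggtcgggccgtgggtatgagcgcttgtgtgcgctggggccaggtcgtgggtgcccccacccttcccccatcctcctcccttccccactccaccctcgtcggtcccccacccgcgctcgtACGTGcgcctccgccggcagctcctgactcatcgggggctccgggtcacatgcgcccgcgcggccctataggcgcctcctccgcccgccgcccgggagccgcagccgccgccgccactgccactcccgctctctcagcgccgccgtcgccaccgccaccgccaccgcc
ENO2 had log2 signals of 9.92, 9.89 and 9.92 on the pioglitazone arrays at 24 h, against 8.75, 8.52 and 8.48 on the vehicle arrays, and 8.39, 8.70 and 8.51 on the pioglitazone arrays at 12 h, against 8.23, 8.43 and 8.23 on the vehicle arrays. The high values were those of the pioglitazone arrays at 24 h, and the groups overlapped at 12 h. Its change was 1.08 (SE 0.22, n = 3 arrays per group, limma adjusted p = 0.0295), and its effect at 48 h was 2.01. PFKFB4, which makes the allosteric activator of phosphofructokinase, gave 9.87, 9.71 and 9.76 on the pioglitazone arrays at 24 h, against 8.07, 7.78 and 7.99 on the vehicle arrays, and 9.51, 9.39 and 9.52 on the pioglitazone arrays at 12 h, against 8.55, 8.47 and 8.46 on the vehicle arrays. Its response grew, with an effect of 1.83 at 24 h, against 0.98 at 12 h, a change of 0.85 (SE 0.15, n = 3 arrays per group, limma adjusted p = 0.0117). SLC2A1, the glucose transporter GLUT1, gave 10.94, 11.10 and 11.03 on the pioglitazone arrays at 24 h, against 10.32, 10.20 and 10.28 on the vehicle arrays, and 11.22, 11.05 and 10.96 on the pioglitazone arrays at 12 h, against 11.01, 10.91 and 11.09 on the vehicle arrays. Between the times it moved by −0.05 on the pioglitazone arrays and −0.74 on the vehicle arrays, and its change was 0.68 (SE 0.14, n = 3 arrays per group, limma adjusted p = 0.0333). ADM, the vasodilator peptide adrenomedullin, changed by 0.79 (SE 0.18, n = 3 arrays per group, limma adjusted p = 0.0487). Of 26 hypoxia-induced genes 3 were called higher (PFKFB4, ADM, SLC2A1) and 0 lower, against 0.351% and 0.342% of all genes, with 21 of 26 values positive and a median of 0.25. Of 26 glycolysis genes 3 were called higher (ENO2, PFKFB4, SLC2A1), 2 of them shared with the hypoxia list, and 0 lower, with a median of 0.21. Relative to the median of all genes, these medians lay between 0.19 and 0.34 and between 0.15 and 0.30 over all alternatives. The respiratory chain and ATP synthase list, 50 genes, had a median of 0.13 and 0 called.

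AKR1C3 and AKR1B10, aldo-keto reductases that detoxify carbonyl compounds and are known NRF2 targets, also turned higher. AKR1C3 had signals of 9.20, 9.54 and 9.31 on the pioglitazone arrays at 24 h, against 7.71, 7.71 and 7.65 on the vehicle arrays, and 8.57, 8.84 and 8.73 on the pioglitazone arrays at 12 h, against 8.08, 8.12 and 8.14 on the vehicle arrays. The groups stood apart at both times, more widely at 24 h, and its change was 1.06 (SE 0.16, n = 3 arrays per group, limma adjusted p = 0.00427). AKR1B10 had an effect of 1.60 at 24 h, against 0.47 at 12 h and a change of 1.13 (SE 0.22, n = 3 arrays per group, limma adjusted p = 0.0226). They were the 2 called higher among 26 NRF2 targets, against 0.351% of all genes, with 0 lower and a median change of 0.13. Cross-hybridisation among these close paralogues was not tested. ALDH1A3, which makes retinoic acid from retinal, moved down. Its log2 signal was 8.37, 8.26 and 8.51 on the pioglitazone arrays at 24 h, against 10.17, 10.14 and 10.21 on the vehicle arrays, and 8.99, 8.98 and 8.75 on the pioglitazone arrays at 12 h, against 9.81, 9.72 and 9.75 on the vehicle arrays. Pioglitazone arrays lay below vehicle arrays at both times, further at 24 h, with a change of −0.94 (SE 0.15, n = 3 arrays per group, limma adjusted p = 0.00501) and −0.89 on a second probe. It was the 1 called of 14 retinoid metabolism genes, whose median was −0.05.

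Inflammatory genes were mixed. PTGS2, the inducible cyclooxygenase COX-2, had signals of 8.30, 8.14 and 8.17 on the pioglitazone arrays at 24 h, against 9.44, 9.78 and 9.53 on the vehicle arrays, and 9.0, 9.05 and 8.78 on the pioglitazone arrays at 12 h, against 9.30, 9.21 and 9.42 on the vehicle arrays. The groups stood apart at both times, with the wider gap at 24 h, and the change was −1.02 (SE 0.17, n = 3 arrays per group, limma adjusted p = 0.00676). A second probe changed by −1.40. PTGS2 was the 1 member called lower among 24 genes of NF-κB and inflammatory cytokines, of which 0 were called higher. The other genes of that list leaned the opposite way, with 21 of 24 values positive and a median change of 0.22, or between 0.10 and 0.32 relative to the median of all genes over all alternatives. The list's median effect was −0.28 at 24 h, with 9 past downwards and 2 upwards, against 12.8% and 10.5% of all genes. It was −0.41 at 12 h, with 11 downwards and 0 upwards, against 4.48% and 4.32% of all genes. BCL3, an IκB-like partner of NF-κB p50 and p52 that was not on the list, had the largest faded response. BCL3 signals were 8.49, 8.50 and 8.59 on the pioglitazone arrays at 24 h, against 8.39, 8.36 and 8.41 on the vehicle arrays, and 7.60, 7.45 and 7.68 on the pioglitazone arrays at 12 h, against 8.67, 8.72 and 8.51 on the vehicle arrays. The pioglitazone arrays at 12 h were low and the other 9 arrays lay within a narrow range. Its effect was 0.14 at 24 h, against −1.06 at 12 h, a change of 1.20 (SE 0.18, n = 3 arrays per group, limma adjusted p = 0.0036). EPN3, an endocytic adaptor, and ASB9, an adaptor of a ubiquitin ligase, also faded, with changes of 1.16 and 1.14, though a second ASB9 probe gave 0.58. SERTAD4, a gene of little-known function, was the 1 gene whose response shrank, with an effect of −0.49 at 24 h, against −1.27 at 12 h and a change of 0.78 (SE 0.15, n = 3 arrays per group, limma adjusted p = 0.0193). Its antisense neighbour SERTAD4-AS1 faded, with 0.03 at 24 h, against −0.97 at 12 h.

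CCN2, the matricellular growth factor CTGF and a target of TGF-β and YAP, had log2 signals of 9.36, 9.22 and 9.15 on the pioglitazone arrays at 24 h, against 10.28, 10.24 and 10.27 on the vehicle arrays, and 10.50, 10.30 and 10.30 on the pioglitazone arrays at 12 h, against 10.14, 9.85 and 10.05 on the vehicle arrays. All 3 pioglitazone arrays at 24 h lay below the other 9. Its effect was −1.02 at 24 h, against 0.35 at 12 h and its change −1.37 (SE 0.16, n = 3 arrays per group, limma adjusted p = 5.47e-04), with −1.75 on a second probe. It was the 1 called among 16 TGF-β and SMAD targets, whose median was −0.06. LFNG, the glycosyltransferase that modifies Notch receptors, had an effect of 1.96 at 24 h, against 0.93 at 12 h and a change of 1.02 (SE 0.16, n = 3 arrays per group, limma adjusted p = 0.00477). LFNG and HEY2 were the 2 called among 20 Notch genes and went in opposite directions, with a list median of −0.01. Over all genes 0.351% were called higher and 0.342% lower. LAMP3, a lysosomal membrane protein, changed by −1.09 (SE 0.23, n = 3 arrays per group, limma adjusted p = 0.0392), with −0.44 on a second probe, and its level was higher at 24 h than at 12 h on both treatments (0.91 on the pioglitazone arrays and 2.0 on the vehicle arrays). CTNNAL1, an α-catulin of the catenin family, changed by −1.05 (SE 0.22, n = 3 arrays per group, limma adjusted p = 0.0333). TIGAR, a p53 target that lowers fructose-2,6-bisphosphate, changed by −0.73 (SE 0.15, n = 3 arrays per group, limma adjusted p = 0.0295). It and GDF15, which is also on the stress response list, were the 2 called of 26 p53 targets, against 0.342% lower over all genes. The list median was −0.09, and CDKN1A, the p53-induced inhibitor p21, changed by 0.03, with −0.60 on a probe detected on 3 of 18 arrays.

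Several signalling lists held 0 called genes. Over 34 genes of MAPK feedback and the immediate early response the median change was −0.24, with EGR1 (−0.85) and JUNB (0.64) the largest values. Of the 16 circadian clock genes, whose median was −0.12, the largest values were those of the repressors CRY1 (−0.90) and PER2 (−0.73), at limma adjusted p = 0.0715 and 0.0661. The 21 heat shock genes had a median of −0.11, the 32 proteasome genes −0.01 and the 25 genes of the tricarboxylic acid cycle −0.08. Across the 5 aryl hydrocarbon receptor targets the median was −0.02. CYP1B1 of that list gave −1.06 at 24 h, against −1.46 at 12 h, and its change of 0.40 did not pass. The cyclin gene CCND1 changed by 0.15 and was not called (limma adjusted p = 0.645). The proliferation marker MKI67, detected on no pioglitazone array at 24 h, was not called either.

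The effects at 48 h were set beside these responses. The 48 h arrays do not enter the difference itself, but all 18 arrays share the normalisation, the probe filter and the estimate of the spread, so the 48 h values are not independent of the calls. Of the 41 genes higher at 24 h, 30 passed at 48 h upwards (14.3% of all genes), 1 downwards (SERTAD4) and 10 not at all. The median effect of the 41 was 0.07 at 12 h, 1.00 at 24 h and 0.94 at 48 h. Of the 40 lower, 30 passed at 48 h downwards (15.4% of all genes), 1 upwards (SLC1A4, 0.41) and 9 not at all, and their median effect was 0.18 at 12 h, −0.80 at 24 h and −0.75 at 48 h. These genes had been chosen with the 24 h arrays of the same drug, so the counts describe persistence and do not test the change itself. BLID, CSF1R, ELF3 and TRIM6 were among the 10 that did not pass at 48 h. Without the third pioglitazone array at 48 h, whose background (153) stood apart from that of the other 5 (102 to 107), 61 of the 81 passed in the direction of their change, against 60 with it. Among the 1669 genes up at 48 h, the median effect was 0.16 at 12 h, 0.31 at 24 h and 0.56 at 48 h, and 72.7% had a positive change in response. For the 1800 genes down at 48 h the medians were −0.19, −0.36 and −0.61, and 75.1% had a negative change, where 47.6% of all genes had a positive one.

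**Figure D5:**
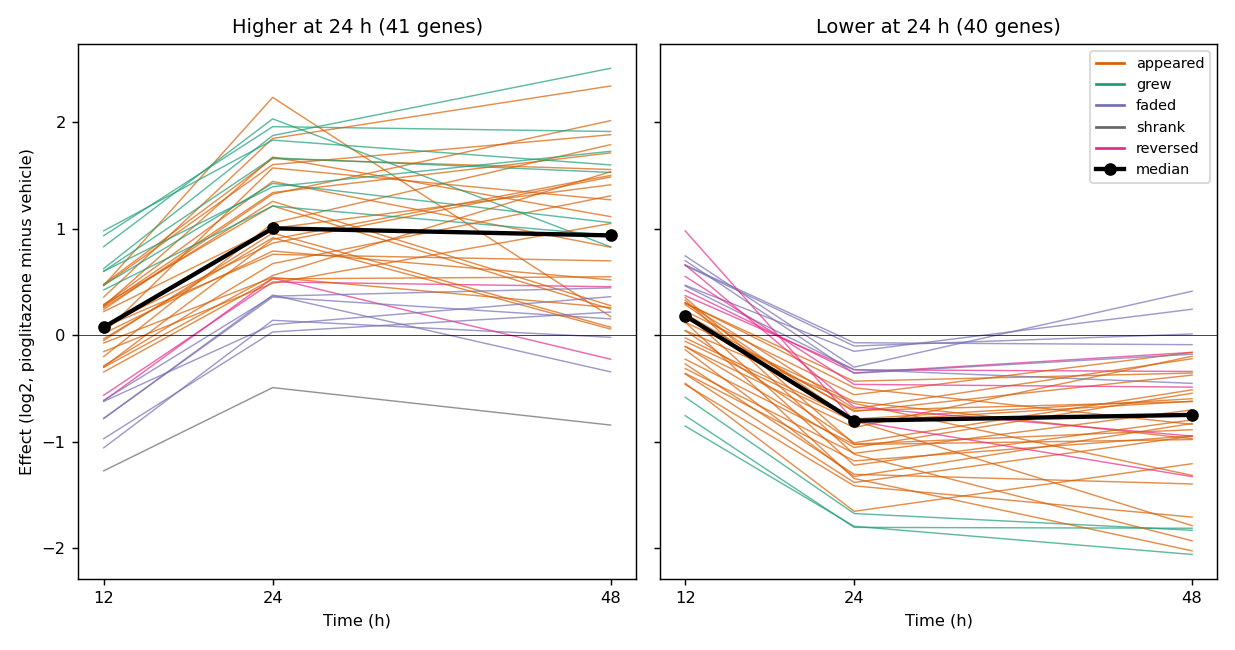
Effect of pioglitazone (vertical axis, log2) at 12, 24 and 48 h (horizontal axis) for the 41 genes whose response turned higher (left) and the 40 whose response turned lower (right), each line a gene coloured by pattern and the black line the median. The median stands at 0.07, 1.00 and 0.94 on the left and at 0.18, −0.80 and −0.75 on the right.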

How the data were processed

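Signals of 47323 probes were read from the authors' unnormalised table, deposited as linear intensities that were exported from GenomeStudio per the submitters' processing notes, with a detection p-value beside each, also deposited by the authors. A second table of processed intensities, deposited by the authors, served as an alternative; its log2 was taken here. The unnormalised intensities were background-corrected from the detection p-values (limma 3.58.1, R 4.3.3, offset 16), quantile-normalised and put on the log2 scale. Probes with a detection p-value under 0.01 on at least 3 of 18 arrays were kept (20032), named by 1 platform symbol (15678), and the brightest stood for each of 11680 genes. One group-means fit over the 18 arrays (12 residual degrees of freedom, empirical Bayes) gave every effect and change. Where no array of a group detected the probe, its level is a bound, set by the lowest signal above background. Replicate numbers did not pair the arrays. Precision is limited by the number of arrays. The fit was tested on simulated data. The gene lists and the rule for named genes were chosen with earlier results of these data known: the 14 highest and 14 lowest changes, up to 6 of each faded, shrank, reversed, opposite-sign and held pattern (held in each direction), up to 4 called per list and direction or 2 uncalled, and a few genes in every case. Alternatives were background correction, scaling, filter, probe choice, variance model, replicate block and leaving out arrays. Promoter windows (250 bases before to 50 after a start) came from RefSeq, GRCh38.p14.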

Additional observations from a re-analysis of the deposited data

Results flagged for a closer look

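The 81 genes whose response changed have, by definition, effects that differ between 24 and 12 h under a test of the difference itself. Within them 7 genes passed at both times in opposite directions. Their changes in response were 1.15 for TRIM6 and 1.06 for IL17RE, higher at 24 h, and −1.78 for IL1RL1, −1.33 for HEY2, −1.01 for CSGALNACT2, −0.78 for HSPA5 and −0.70 for BTG1, lower at 24 h. Groups of 3 arrays were not searched for outlying arrays. The arrays of Pio_24 correlated with the others of their group at a mean r of 0.991, 0.992 and 0.994, against 0.994, 0.994 and 0.995 for those of Veh_24.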

How the results depend on the processing

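The called genes kept the sign of their change in every alternative (69 of 69 tested with probes detected on all 12 arrays, 81 of 81 in the others), and 0 of them reversed. They were called on these same arrays with changes of at least 0.62, so the kept signs lend the calls no separate support. Of the 81, 45 stayed called under at least 12 of the 14 settings other than leaving out an array. The number of calls moved, listed here as total, higher, lower, appeared, faded and reversed, from 81, 41, 40, 50, 12 and 7. Without background correction they were 196, 92, 104, 124 and 31, and with an offset of 50 they were 146, 73, 73, 89 and 24. Arrays centred on the median of probes detected on all 18 gave 122, 86 higher and 83 appeared (70.5% higher, against 50.6%), and centred on the median of all probes 0 for each (limma; 717 at an unadjusted p under 0.05). The 12 arrays normalised and fitted alone gave 359, 167, 192, 232, 58 and 24. Array weights, whose estimation stopped before convergence, gave 1968, 889, 1079, 1241, 296 and 126. An intensity trend with robust moderation gave 130, with 72 lower and 82 appeared. The replicate block within each time gave 13, 6, 7, 8, 0 and 3 (0 faded by limma at the same threshold), with 12 of the 81 shared, and over all times 84, with 68 shared. Deviations of arrays with the same number correlated at 0.05, −0.02 and 0.05 at 24 h and 0.09, −0.18 and −0.09 at 12 h, so the numbers give no pairing. Without 1 array the counts ran from 30 to 199, 17 to 98 higher, 13 to 101 lower, 16 to 140 appeared, 3 to 29 faded and 4 to 9 reversed. With the third pioglitazone array at 48 h left out, 61 genes passed at 48 h in the direction of their change, against 60. The cause of these moves was not tested. Signal over background limits 11 of the 81 genes, which no array of at least 1 group detected.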
